A study of Mus musculus with 37 samples.

Results

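The 10 genes described here are the Pdgf receptors Pdgfra and Pdgfrb, the ligands Pdgfa and Pdgfb, and 6 genes of mural cells, the contractile and supporting cells of blood vessels: Cspg4, Rgs5, Des, Acta2, Tagln and Myh11. They were taken as a named list, with no rule on their values. In GRCm38.p6 Pdgfra lies at chr5:75151322-75198206, Pdgfa at chr5:138976014-139000792, Pdgfb at chr15:79995865-80024614, Cspg4 at chr9:56865104-56899870, Acta2 at chr19:34240336-34255585 and Tagln at chr9:45929628-45936058. All 10 were among the 15709 genes tested, and 22 of their 23 probe sets passed the filter on low signals, out of 45101 probe sets on the array. RNA came from 9 components of the developing kidney of wild-type CD-1 mice of unknown sex, measured on 37 arrays. At embryonic day E11.5 these were metanephric mesenchyme (8 arrays) and ureteric bud (4), and at E12.5 renal vesicle (5). At E15.5 they were S-shaped body (4), renal corpuscle at the capillary loop and maturing stages (4), early proximal tubule (2), ureteric tip (3), medullary collecting duct (3) and medullary interstitium (4). The labels describe pools of about 50 sections from 5 kidneys, amplified in 2 rounds, although some titles name dissection or collagenase. Every value is a mean over all the cells that a sample held.

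Pdgf ligands are secreted as dimers and act on receptor tyrosine kinases of neighbouring cells. The A chain binds mainly the alpha receptor, which marks fibroblast-like and interstitial cells, and the B chain binds both receptors. In the kidney, endothelial cells of the growing glomerulus make Pdgfb, and mesangial cells, the pericyte-like cells that hold its capillary loops, carry Pdgfrb and depend on it. Pericytes also carry Cspg4, and contractile mural cells make Acta2, Tagln and Myh11.

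Levels below are quantile normalized log2 signals, computed after an offset of 34.62 was added to each deposited intensity, and given as mean ± SD. A difference between components is a log2 difference ± its standard error from a linear model over all arrays. The words higher and lower are kept for genes called different, which needed an adjusted p below 0.05 and a log2 difference of 1 or more. Levels of different genes come from different probes and were not compared. Fewer cells of a type and less RNA per cell cannot be told apart in these pools. Nothing in the labels says which arrays came from separate litters, so p-values measure the spread between these arrays.

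The array labelled S-shaped body replicate 3 had a mean log2 signal of 14.9 over 7 podocyte genes, while S-shaped body replicates 1, 2 and 4 had 11.4 to 11.7 and renal corpuscle replicates 1 to 3 had 14.2 to 15.2. The array labelled renal corpuscle replicate 4 had 10.96. On these 7 genes both arrays thus lay nearer the other component than their own, the second somewhat below the other's range. Results that rest on these 2 arrays are given with and without them. The labels state laser capture for all but 1 of the arrays, yet the titles of mesenchyme replicates 1, 3 and 4 name LCM, those of replicates 5 to 8 and of all ureteric buds name dissection or collagenase, and that of replicate 2 names neither. Dates stand in 25 titles. The log2 signal gap between the 3′ and 5′ Actb control probe sets, a sign of RNA integrity and amplification, averaged 3.95 in renal vesicle, 3.83 in mesenchyme, 3.70 in proximal tubule and 3.52 in ureteric bud, and 1.84 to 2.55 in the other components; its part in the differences was tested only as a covariate.

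Pdgfra was high in the interstitial and mesenchymal components and low in the ureteric bud. In medullary interstitium the 4 arrays read 14.32, 15.03, 15.26 and 15.13 (14.94 ± 0.42, n = 4). Mesenchyme ranged from 13.48 to 14.89 with a median of 14.35 (14.33 ± 0.43, n = 8). The ureteric bud arrays read 8.57, 8.46, 10.34 and 8.54 (8.98 ± 0.91, n = 4). No bud array reached the lowest mesenchyme array, and the difference of −5.35 ± 0.53 corresponds to a 40.8-fold lower signal (adjusted p = 4.79e-09). All 3 probe sets of Pdgfra were called lower in the bud. Renal vesicle, the first epithelial ball of the nephron, read 9.98, 12.28, 13.02, 11.45 and 10.86, below every mesenchyme array (difference −2.82 ± 0.49, adjusted p = 0.000176). This call, unlike the others on Pdgfra, was kept in every alternative that could be run for it, which leaves out the fit with title dates. These alternatives gave −3.19 to −2.43. By the other probe sets vesicle averaged 7.48 ± 0.79 against 8.40 ± 0.33 in mesenchyme, and 7.57 ± 1.44 against 9.88 ± 1.64. The first of these gaps was too small for a call.

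Between these ends Pdgfra varied widely within components. Proximal tubule averaged 13.25 ± 0.29, collecting duct 13.07 ± 0.93, ureteric tip 12.88 ± 1.01, renal corpuscle 12.83 ± 1.23 and S-shaped body 12.27 ± 1.42. Renal vesicle exceeded ureteric bud by 2.54 (adjusted p = 0.00274), and no other neighbours in this order differed by the test. Medullary interstitium exceeded the mean of the other E15.5 components by 2.08 ± 0.49 (4.21-fold, adjusted p = 0.00598), with a second probe set also called (1.53). Ureteric tip and collecting duct are epithelia of the same lineage as the ureteric bud, and at E15.5 both gave Pdgfra signals above the bud: the lowest tip array read 11.80 and the highest bud array 10.34. The log2 of the summed signal of 11 stroma genes also differed. It ran from 15.06 to 17.10 in tip, 15.47 to 17.07 in collecting duct and 12.32 to 12.86 in bud. All bud titles name dissection or collagenase. The part of stroma in the pieces, or of the way of collection, was not tested.

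Pdgfrb, by the probe set used, had its highest means in the 2 components that hold the future glomerulus; by the second probe set medullary interstitium (10.88 ± 0.79) and S-shaped body (10.88 ± 0.61) lay level and above renal corpuscle (10.54 ± 0.86). The S-shaped body arrays read 13.50, 12.96, 14.79 and 12.87 (13.53 ± 0.89), and the renal corpuscle arrays 14.67, 12.41, 13.75 and 13.19 (13.50 ± 0.95). Medullary interstitium followed at 12.84 ± 0.47, collecting duct at 12.36 ± 1.22, proximal tubule at 12.21 ± 0.18, mesenchyme at 11.99 ± 0.84, renal vesicle at 11.58 ± 0.93 and ureteric tip at 11.48 ± 0.42. The ureteric bud stood apart at 9.50, 8.82, 8.38 and 8.87, and the step from tip to bud was the only one between neighbours in the order that the test called (2.59, adjusted p = 0.00636). Bud was lower than mesenchyme by 3.09 ± 0.47 (8.54-fold, adjusted p = 1.39e-05), with no overlap and with both probe sets called.

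The renal vesicle arrays of Pdgfrb read 11.30, 11.09, 12.89, 12.10 and 10.52. S-shaped body was higher by 1.95 ± 0.52 (adjusted p = 0.022), and the second probe set gave 3.18. The S-shaped body and vesicle arrays overlapped at 1 point, vesicle replicate 3 reading above S-shaped body replicate 4. Without S-shaped body replicate 3 the difference was 1.53 (adjusted p = 0.134), and without renal vesicle replicate 5 it was 1.69 (adjusted p = 0.0624), so neither was called. In mesenchyme the 4 arrays of replicates 1 to 4 read 13.34, 12.13, 13.00 and 11.98, all above those of replicates 5 to 8 at 11.42, 10.76, 11.54 and 11.73.

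**Figure D1:**
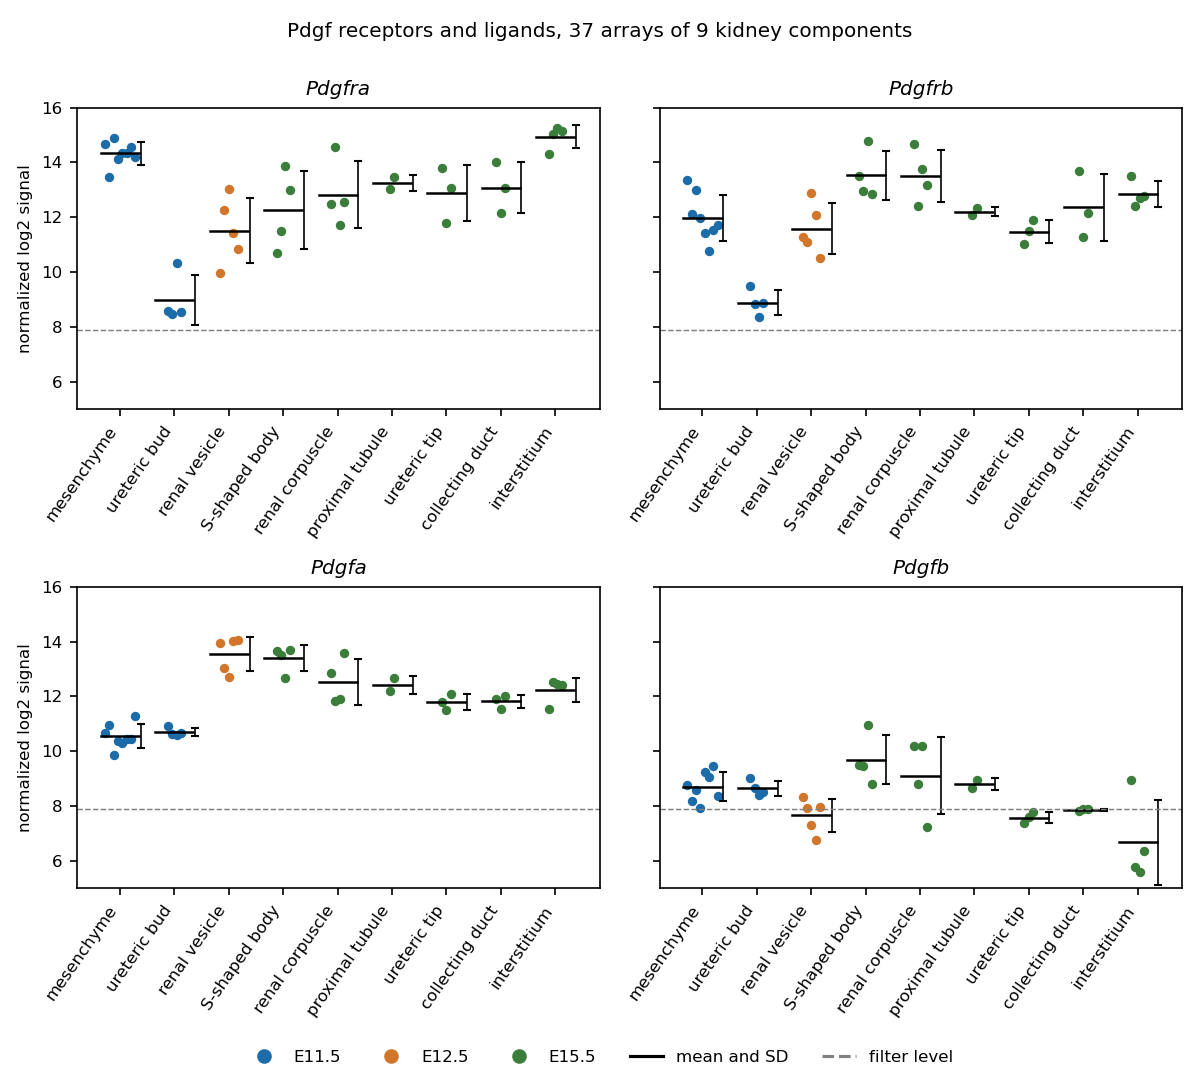
Normalized log2 signal of the Pdgf receptors and ligands in 9 kidney components; each point is 1 array, coloured by embryonic day, and bars give the mean and SD. The ureteric bud lies lowest for both receptors, renal vesicle and S-shaped body lie highest for Pdgfa, and 3 of 4 medullary interstitium arrays lie lowest for Pdgfb.

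Pdgfa, the ligand of the alpha receptor, followed another order. Its highest means were in renal vesicle and S-shaped body, where the nephron becomes epithelial. Both components of E11.5, ureteric bud and mesenchyme, had the lowest means, 10.70 and 10.54, and every later component averaged above them. The part of embryonic day was not tested. The renal vesicle arrays read 13.93, 13.02, 12.72, 14.00 and 14.05 (13.54 ± 0.63), and the S-shaped body arrays 13.66, 13.52, 12.68 and 13.70 (13.39 ± 0.48). Mesenchyme ranged from 9.87 to 11.30 with a median of 10.46. The groups did not overlap, and renal vesicle exceeded mesenchyme by 3.00 ± 0.30 (8.01-fold, adjusted p = 4.25e-08). The second probe set, made of other probes, gave 4.12 and was called too. Of all called differences of the 10 genes, this one and the lower Pdgfra in the same comparison were the only 2 that stayed called in every alternative that could be run. The fit with title dates as a term could not be run for this comparison. That fit alone removed the calls of Pdgfra, Pdgfrb, Cspg4 and Rgs5 in bud against mesenchyme. It alone also removed those of Pdgfra and Tagln in interstitium against the other E15.5 components, and of Pdgfa in interstitium against mesenchyme. In the same arrays, then, the ligand was higher and its receptor lower in vesicle than in mesenchyme.

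The remaining levels of Pdgfa fell between these. Renal corpuscle read 12.84, 11.83, 11.89 and 13.57 (12.54 ± 0.83), proximal tubule averaged 12.42 ± 0.33, medullary interstitium 12.23 ± 0.45, collecting duct 11.82 ± 0.24 and ureteric tip 11.80 ± 0.29. Ureteric bud, at 10.91, 10.63, 10.60 and 10.67, did not differ from mesenchyme beyond the error (0.16 ± 0.32, adjusted p = 0.93). Medullary interstitium, at 11.56, 12.51, 12.45 and 12.40, exceeded mesenchyme by 1.69 ± 0.32 (3.22-fold, adjusted p = 0.000411) with no overlap, and by both probe sets. Of 36 pairs of components Pdgfa was called in 18, more than any other of the 10 genes, although no step between neighbours in its order was called.

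Pdgfb, the ligand of both receptors, differed between components of the nephron by the probe set used. By the second probe set renal vesicle (8.01 ± 0.26), S-shaped body (7.92 ± 0.53) and renal corpuscle (7.99 ± 0.45) lay level. The values that follow are of the probe set used. The S-shaped body arrays read 9.51, 9.48, 10.96 and 8.82 (9.69 ± 0.90), renal corpuscle 10.20, 8.82, 10.18 and 7.23 (9.11 ± 1.41), and renal vesicle 8.32, 7.94, 7.32, 6.78 and 7.96 (7.66 ± 0.61). S-shaped body lay above renal vesicle in every array, by 2.03 ± 0.55 (4.07-fold, adjusted p = 0.0259). Without S-shaped body replicate 3 the difference was 1.60 (adjusted p = 0.147) and without renal vesicle replicate 4 it was 1.81 (adjusted p = 0.0687). With the Actb control ratio as a covariate it was 1.17 (adjusted p = 0.515). The array labelled renal corpuscle replicate 4 gave the lowest corpuscle value, and without it renal corpuscle exceeded the other E15.5 components by 1.61 (adjusted p = 0.0345), against 0.98 ± 0.46 (adjusted p = 0.215) with it.

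In medullary interstitium Pdgfb was, by the probe set used, at its lowest. Its arrays read 8.96, 5.77, 5.60 and 6.38 (6.68 ± 1.56), so that 3 of the 4 fell below the filter level of 7.89 and replicate 1 did not. The interstitium was lower than the other E15.5 components by 1.94 ± 0.46 (adjusted p = 0.00708), than renal corpuscle by 2.43 ± 0.58 (adjusted p = 0.0113) and than mesenchyme by 2.02 ± 0.50 (adjusted p = 0.00629). These 3 comparisons share the interstitium arrays. Against the other E15.5 components the call was lost without interstitium replicate 2 (−1.63, adjusted p = 0.0548) or 3 (−1.58, adjusted p = 0.0885). Against mesenchyme it was lost without interstitium replicate 3 (−1.66, adjusted p = 0.0553). Against renal corpuscle it was lost without corpuscle replicate 1 (−2.07, adjusted p = 0.0503) or 3 (−2.07, adjusted p = 0.0636) or interstitium replicate 3 (−2.07, adjusted p = 0.0648). The second Pdgfb probe set was called in none of the 8 comparisons, and its r with the first over the 37 arrays was −0.0024. By this second probe set interstitium (7.95 ± 0.61) lay near renal corpuscle (7.99 ± 0.45) and above mesenchyme (7.13 ± 0.71), which had the lowest mean. By the probe set used, proximal tubule averaged 8.81 ± 0.21, mesenchyme 8.70 ± 0.53, ureteric bud 8.66 ± 0.28, collecting duct 7.87 ± 0.03 and ureteric tip 7.58 ± 0.19.

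Of the other genes of the pathway, 19 of 20 listed were measured, among them the further ligands Pdgfc and Pdgfd, the receptor-like Pdgfrl, the proteases Plat and Furin, and the adaptors and enzymes that bind an active receptor. In ureteric bud 3 of the 19 were lower than in mesenchyme: Plat, the protease that activates Pdgfc (−4.50), Pdgfrl (−1.91) and the phospholipase Plcg1 (−1.20). In renal vesicle 1 was higher and 3 were lower: Pdgfd was higher than in mesenchyme (1.65), and the docking protein Gab1 (−2.52), the adaptor Shc1 (−1.97) and Pdgfrl (−1.62) were lower. In medullary interstitium Pdgfd, a ligand of the beta receptor, was higher than in mesenchyme (2.48) and than in the other E15.5 components (1.60), as was the endocytic receptor Lrp1 (1.34 and 1.41), while Pdgfrl (−2.63) and Pdgfc (−1.47) were lower than in mesenchyme. In renal corpuscle Plat was higher than in the other E15.5 components (2.83). In S-shaped body only Gab1 was higher than in renal vesicle (1.53), and without S-shaped body replicate 3 and renal corpuscle replicate 4 none of the 19 was called there.

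Cspg4, the NG2 proteoglycan of pericytes, separated the ureteric bud from every other component. The bud arrays read 5.54, 6.03, 5.91 and 5.53 (5.75 ± 0.26), and the lowest array of any other component read 8.22, in ureteric tip. The difference to mesenchyme (10.49 ± 0.35, n = 8) was −4.74 ± 0.49 (26.6-fold, adjusted p = 1.30e-08), and the step from tip to bud was called as well (3.48, adjusted p = 0.000544). The bud's deposited signals reached down to 6.34, below the offset, so the size of this fold depends on the offset. A second probe set gave −0.22 for the same difference (adjusted p = 0.972), was not called, and had an r of 0.26 with the first. The highest mean was in proximal tubule, at 11.41 and 12.79, but by the second probe set proximal tubule was the lowest of the 9 components, at 5.65 and 9.14. Among the other components means ran from 9.23 to 11.21, and no neighbours differed by the test.

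Rgs5, a regulator of G protein signalling found in pericytes, was highest in mesenchyme, from 12.69 to 14.30 with a median of 13.44. Ureteric bud read 10.24, 10.11, 10.76 and 10.12, lower than every mesenchyme array (−3.14 ± 0.67, adjusted p = 0.0012). Renal vesicle was lower by 2.79 ± 0.62 (adjusted p = 0.00235) but spread from 8.16 to 13.29, so that it overlapped mesenchyme. Medullary interstitium read 13.75, 12.14, 13.23 and 12.84, above the mean of the other E15.5 components by 2.11 ± 0.61 (4.33-fold, adjusted p = 0.0297). That call was lost without interstitium replicate 1 (1.86, adjusted p = 0.0946), 3 (2.03, adjusted p = 0.116) or 4 (2.16, adjusted p = 0.083).

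In renal corpuscle Rgs5 read 14.06, 12.14, 13.10 and, in the array labelled replicate 4, 9.40. With all 4 arrays the corpuscle exceeded the other E15.5 components by 1.13 ± 0.61 (adjusted p = 0.293). Without replicate 4 the difference was 2.06 (adjusted p = 0.0357) and was called. The 3 further probe sets of Rgs5 had r values of 0.019, 0.23 and 0.68 with the one used, and only the last of these was called in any of the 8 comparisons, lower in ureteric bud than in mesenchyme (−1.76).

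Des, the intermediate filament desmin of muscle and mesangial cells, stayed near the filter level in every component, with means from 6.79 in renal vesicle to 8.51 in mesenchyme and no deposited signal above 833. Renal vesicle was lower than mesenchyme by 1.72 ± 0.52 (adjusted p = 0.0226), though the groups overlapped. The call was lost without renal vesicle replicate 1 (−1.55, adjusted p = 0.0727) or 4 (−1.55, adjusted p = 0.0666). The second Des probe set gave −0.17 for the same difference and had an r of 0.0069 with the first.

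Acta2, smooth muscle alpha actin, spanned a wider range of component means than any other of the 10 genes. Medullary interstitium was highest and its 4 arrays lay close together, at 14.43, 14.55, 15.14 and 14.92 (14.76 ± 0.33). Proximal tubule read 13.93 and 13.74, renal corpuscle 15.08, 12.78, 12.73 and 13.14, and S-shaped body 13.18, 11.81, 15.23 and 12.96. Renal vesicle read 8.87, 11.60, 12.31, 8.21 and 9.94, and ureteric bud 7.49, 7.71, 9.32 and 8.20. The order ran on through ureteric tip (12.01 ± 1.62) and collecting duct (11.23 ± 0.79), and no step between neighbours was called.

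Mesenchyme was the most uneven component for Acta2. Replicates 1 to 3 read 14.49, 14.97 and 14.46, as high as medullary interstitium. Replicates 4 and 5 read 9.90 and 10.29, and replicates 6 to 8 read 12.51, 12.27 and 12.14. The high arrays are 2 of the 3 with LCM in the title and the array with no such word, and the lowest array is the third LCM array, so the spread did not follow the titles alone. Tagln moved with Acta2 across these 8 arrays (r = 0.89) and Pdgfra did not (r = 0.023). These are descriptions over 8 arrays.

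**Figure D2:**
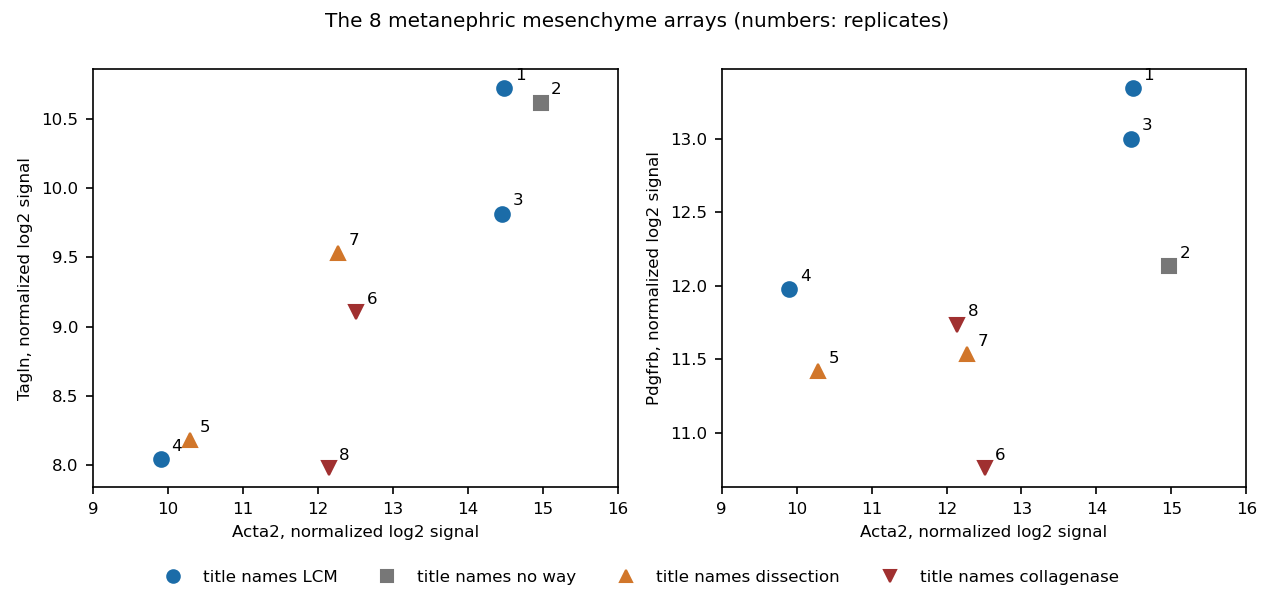
The 8 metanephric mesenchyme arrays, with normalized log2 signal of Acta2 on the x axis and of Tagln (left) or Pdgfrb (right) on the y axis; numbers are replicates and symbols show the word in the title. Replicates 1 to 3 lie at Acta2 signals of 14.46 to 14.97 and replicates 4 and 5 at 9.90 and 10.29.

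The bud was lower than mesenchyme in Acta2 by 4.45 ± 0.79 (21.8-fold, adjusted p = 0.000127), with no overlap. Renal vesicle was lower by 2.44 ± 0.74 (adjusted p = 0.0223), a call lost without renal vesicle replicate 1 (−2.11, adjusted p = 0.0819) or 4 (−1.95, adjusted p = 0.0933). With the probe set used for Acta2 left out, because its suffix marks probes that can match more than 1 transcript, the next probe set gave 0.49 and 0.55 for these 2 differences, neither called. That probe set's signals ran only from 5.29 to 8.16 over the 37 arrays. S-shaped body exceeded renal vesicle by 3.11 ± 0.87 (adjusted p = 0.0295). This call was lost without S-shaped body replicate 1 (3.15, adjusted p = 0.0578) or 3 (2.47, adjusted p = 0.159) and without renal vesicle replicate 1 (2.78, adjusted p = 0.0812), 4 (2.62, adjusted p = 0.0888) or 5 (3.05, adjusted p = 0.052).

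Medullary interstitium exceeded the other E15.5 components in Acta2 by 2.00 ± 0.73 (adjusted p = 0.0929) and mesenchyme by 2.13 ± 0.79 (adjusted p = 0.068), neither called. The probe set that took its place above did call the difference to mesenchyme (1.88, adjusted p = 0.000622). Against mesenchyme the difference was called without replicate 1 (2.40, adjusted p = 0.0422), 2 (2.47, adjusted p = 0.0326) or 3 (2.39, adjusted p = 0.0432) of mesenchyme, the 3 arrays of high Acta2. It was 2.96 (adjusted p = 0.0104) against the 4 mesenchyme arrays titled dissection or collagenase and 1.81 (adjusted p = 0.332) against the 3 titled LCM.

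The upstream sequence of Acta2 is shown because contractile genes of smooth muscle are textbook targets of serum response factor, which binds CArG boxes. The RefSeq window of 250 bases before the start was searched for a CArG box on both strands, which give the same matches since the box reads alike on each, with at most 1 C or G allowed among the 6 A and T bases of its core. Such a match stands in 8.59% of 32841 windows of the same length, and 2 or more stand in 0.67%. Of the 10 genes 6 have a window in the table, and Acta2 alone had a match, with 2, of 84 to 75 and 34 to 25 bases before the start. The start meant is the one that the window precedes. For Acta2 it lies inside the gene interval given at the opening, as does most of the window. Among the 12 smooth muscle contractile genes with a window, Myl9, the regulatory myosin light chain, and Srf itself had 2 each. In the sequences, in GRCm38.p6, 5′ to 3′ on the strand of the gene, capitals mark the matches. A match is a description and not a measured site.
Acta2, chr19:34255374-34255623, minus strand: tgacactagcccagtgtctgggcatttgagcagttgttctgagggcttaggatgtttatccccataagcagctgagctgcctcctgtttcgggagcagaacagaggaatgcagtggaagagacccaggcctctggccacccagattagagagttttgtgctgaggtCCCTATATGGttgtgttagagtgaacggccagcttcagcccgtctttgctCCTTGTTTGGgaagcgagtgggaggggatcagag
Myl9, chr2:156775214-156775463, plus strand: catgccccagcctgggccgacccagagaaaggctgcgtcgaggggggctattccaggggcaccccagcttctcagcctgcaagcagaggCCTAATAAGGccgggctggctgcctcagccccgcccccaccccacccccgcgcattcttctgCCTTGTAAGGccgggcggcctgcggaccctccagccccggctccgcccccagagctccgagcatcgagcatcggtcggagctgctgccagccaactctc

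Tagln, the actin-binding protein SM22 of smooth muscle, had its highest mean in medullary interstitium. The interstitium arrays read 11.62, 11.26, 11.47 and 12.37 (11.68 ± 0.48), and mesenchyme ranged from 7.98 to 10.72 with a median of 9.32. Interstitium exceeded mesenchyme by 2.43 ± 0.67 (5.39-fold, adjusted p = 0.0125), with no overlap, a call lost without interstitium replicate 4 (2.20, adjusted p = 0.0582). The call was also lost with the Actb control ratio as a covariate (2.16, adjusted p = 0.335) and against mesenchyme titled LCM alone (2.15, adjusted p = 0.168). Interstitium exceeded the other E15.5 components by 3.26 ± 0.61 (9.57-fold, adjusted p = 0.000676), and every array left out in turn kept that call. Against renal corpuscle alone it was not called (1.29 ± 0.77, adjusted p = 0.381), and 2 corpuscle arrays lay above 3 of the 4 interstitium arrays. Collecting duct (7.22 ± 0.61), ureteric tip (6.91 ± 0.99), renal vesicle (7.03 ± 1.21) and ureteric bud (6.83 ± 0.79) lay below the filter level on average.

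The renal corpuscle arrays of Tagln read 11.82, 9.66, 11.81 and, for the array labelled replicate 4, 8.26. The S-shaped body arrays read 8.86, 7.61 and 8.23 and, for the array labelled replicate 3, 11.02, so each component had 1 array within the range of the other. With both of these arrays left out, renal corpuscle exceeded S-shaped body by 2.86 (adjusted p = 0.0261), against 1.46 ± 0.77 (adjusted p = 0.418) with them. Against the other E15.5 components the difference was 1.71 ± 0.61 (adjusted p = 0.0916) with all arrays, 2.42 (adjusted p = 0.0195) without renal corpuscle replicate 4 and 1.85 (adjusted p = 0.044) without S-shaped body replicate 3. Renal vesicle was lower than mesenchyme by 2.21 ± 0.62 (adjusted p = 0.0138), a call lost without renal vesicle replicate 1 (−1.86, adjusted p = 0.0635) or 3 (−1.93, adjusted p = 0.0504). Ureteric bud was lower by 2.42 ± 0.67 (adjusted p = 0.0145) with no overlap, and not called without bud replicate 2 (−2.14, adjusted p = 0.085) or 3 (−2.26, adjusted p = 0.0623). Nor was it called against mesenchyme titled dissection or collagenase alone (−1.87, adjusted p = 0.159) or LCM alone (−2.70, adjusted p = 0.0645).

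Myh11, the smooth muscle myosin heavy chain and a late mark of contractile cells, was weak throughout, with component means from 6.42 to 8.28 and 1 of its 2 probe sets below the filter. Medullary interstitium had the highest mean but also the widest spread, at 10.64, 8.44, 5.91 and 8.12. Without replicate 3, the lowest, interstitium exceeded the other E15.5 components by 2.02 (adjusted p = 0.0151) and renal corpuscle by 2.62 (adjusted p = 0.0106). With it the differences were 1.23 ± 0.50 (adjusted p = 0.137) and 1.83 ± 0.63 (adjusted p = 0.0903), neither called.

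**Figure D3:**
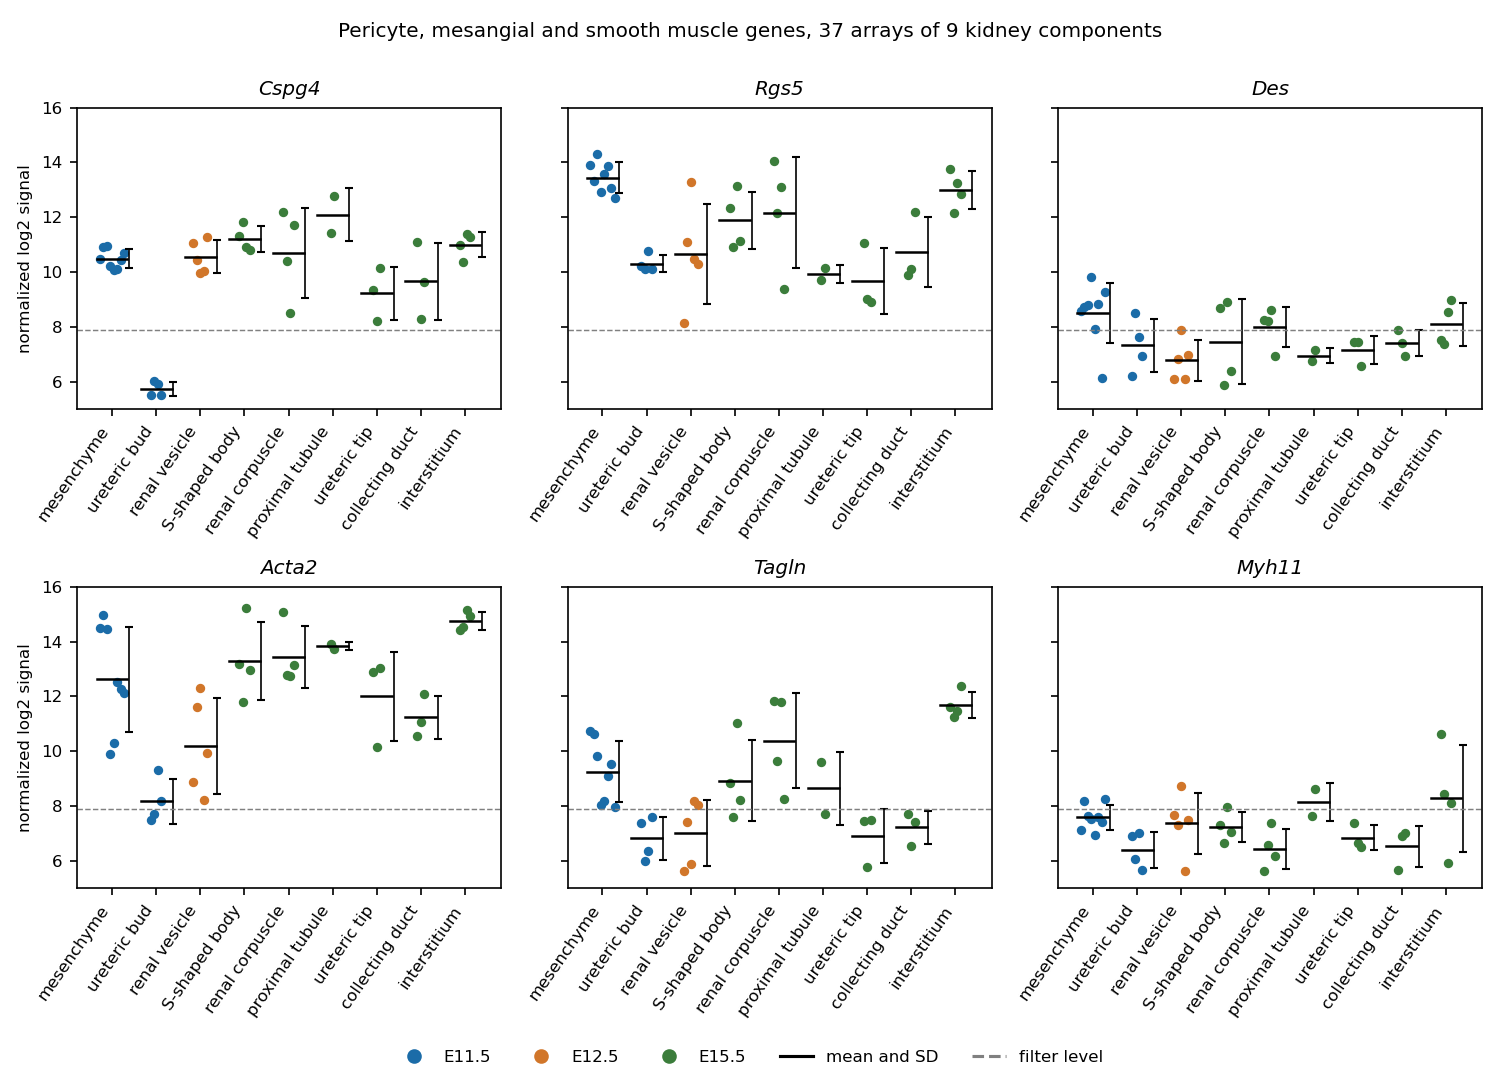
Normalized log2 signal of the 6 mural cell genes in 9 kidney components; each point is 1 array, coloured by embryonic day, bars give the mean and SD, and the dashed line is the filter level of 7.89. Medullary interstitium lies highest for Acta2 and Tagln, ureteric bud lowest for Cspg4, and most arrays of Des and Myh11 lie near or below the line.

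The first comparison, of the ureteric bud with the mesenchyme it grows into, asks which genes separate epithelium from mesenchyme at E11.5. Of the 10 genes 6 were lower in the bud and none was higher, where 4.07% of all genes tested were called lower and 4.08% higher. Pdgfra, Pdgfrb, Cspg4, Rgs5, Acta2 and Tagln were the 6, and these also were the 6 whose arrays did not overlap, against 13.3% of all genes. The median difference of the 10 was −2.76, and that of all genes 0.02. Pdgfa, Pdgfb, Des and Myh11 were not called. All bud titles name dissection or collagenase. Against mesenchyme arrays titled that way alone, or LCM alone, Tagln was the only one of the 6 not called. The second probe set of Cspg4 and the next of Acta2 were not called for this comparison. In the only pair of bud and mesenchyme arrays that share a date in their titles, the 6 gave differences of −4.00, −2.38, −4.20, −3.10, −3.19 and −2.76 in that order, and in the fit with dates as a term, which for this comparison rests on that pair, none of the 6 was called (adjusted p of 0.786 for Pdgfra, 0.964 for Cspg4 and 1 for the other 4).

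Markers of other cells moved with these differences. Of 11 stroma genes 9 were lower in the bud, led by Foxd1 (−6.16) and Col3a1 (−5.47), and all 8 epithelial genes were higher, led by Esrp1 (6.16) and Cldn7 (6.05). The log2 of the summed stroma signal ran from 12.3 to 12.9 in bud arrays and from 16.7 to 17.4 in mesenchyme arrays. Of 12 endothelial genes 6 were lower (Kdr −2.38, Tie1 −2.31), and of 8 macrophage genes 6 were lower (Csf1r −4.73, Tyrobp −3.61). Their part in the result was not tested. No list gene had a deposited signal of 0. Of 14 smooth muscle contractile genes 3 were lower, the tropomyosin Tpm2 (−5.32), the caldesmon Cald1 (−2.64) and the kinase Mylk (−2.45). Of 16 pericyte and mesangial genes 5 were lower and 2 higher, the latter being Gata3 (3.88), which the ureteric lineage also expresses, and Anpep (1.84). None of 10 skeletal muscle genes was called.

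The second comparison, of renal vesicle with mesenchyme, follows the mesenchyme's change to epithelium. It sets E12.5 against E11.5, so component and embryonic day cannot be told apart. Pdgfa was higher, where 3.87% of all genes were called higher, and 5 of the 10 were lower (Pdgfra, Rgs5, Acta2, Tagln and Des), where 7.98% were called lower. The arrays of Pdgfa and Pdgfra alone did not overlap, 2 of the 10, against 6.45% of all genes. Cspg4 (0.08 ± 0.46), Pdgfrb (−0.41 ± 0.44), Pdgfb (−1.04 ± 0.47) and Myh11 (−0.22 ± 0.51) were not called. Of 11 stroma genes 8 were lower (Tbx18 −2.88, Foxd1 −2.43) and of 8 epithelial genes 3 were higher (Cdh1 4.12, Cdh16 2.66). Of the pericyte and mesangial genes Angpt1 (−3.51), Tbx18 (−2.88) and Cd248 (−2.05) were lower and Heyl (1.99) was higher, and of the contractile genes Tpm2 (−1.69) and Cald1 (−1.48) were lower. Tbx18 stands on both the stroma list and the pericyte and mesangial list. With mesenchyme arrays titled LCM alone, or dissection or collagenase alone, 3 of the 10 were called. Renal vesicle and mesenchyme share no date.

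The third comparison, of S-shaped body with renal vesicle, spans the stage at which vessels enter the cleft of the nephron. It sets E15.5 against E12.5, so component and embryonic day cannot be told apart. Pdgfb, Pdgfrb and Acta2 were higher, where 3.27% of all genes were called higher, and none of the 10 was lower, where 1.72% were. Only the arrays of Pdgfb did not overlap, 1 of the 10, against 6.56% of all genes. The Actb gap averaged 2.55 in S-shaped body and 3.95 in renal vesicle. With the Actb control ratio as a covariate none of the 3 was called, with differences of 1.17 for Pdgfb, 2.32 for Pdgfrb and 3.08 for Acta2. Without S-shaped body replicate 3, none of the 3 was called, with differences of 1.60 for Pdgfb, 1.53 for Pdgfrb and 2.47 for Acta2. Among pericyte and mesangial genes the potassium channel Kcnj8 (3.70) and the angiotensin receptor Agtr1a (3.38) were higher, and 2 of the 16 were called with that array and renal corpuscle replicate 4 left out. Of 12 endothelial genes 3 were higher, and 0 without those arrays. Of 7 podocyte genes 5 were higher (Ptpro 6.87, Synpo 4.67), and 4 without those arrays, and of 8 nephron progenitor genes 2 were lower (Eya1 −4.23, Osr1 −2.76), with and without them. The log2 of the summed podocyte signal ran from 15.41 to 18.32 in S-shaped body and from 13.78 to 14.82 in renal vesicle, and that of the progenitor genes from 12.86 to 13.48 and from 13.95 to 14.69. The part of these markers was not tested.

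The fourth comparison, of renal corpuscle with S-shaped body, called none of the 10, where 0.102% of all genes were called higher and 0.477% lower. By limma 1 of the 10 had an unadjusted p under 0.05, Pdgfa (−0.85 ± 0.37, adjusted p = 0.301). With the arrays labelled S-shaped body replicate 3 and renal corpuscle replicate 4 both left out, 2 were called: Tagln higher (2.86) and Pdgfa lower (−1.43, adjusted p = 0.0247). The shares given above are of the fit with all arrays, in which 91 genes were called. Many more of all genes were called without those arrays, as the last section gives, so these shares are no background for the 2 calls. Of the 7 podocyte genes 0 were called with all arrays and 6 were higher without those arrays, which is no independent support, since the same 7 genes singled out the arrays. Without them the corpuscle arrays of Pdgfa read 12.84, 11.83 and 11.89 and the S-shaped body arrays 13.66, 13.52 and 13.70, with no overlap.

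**Figure D4:**
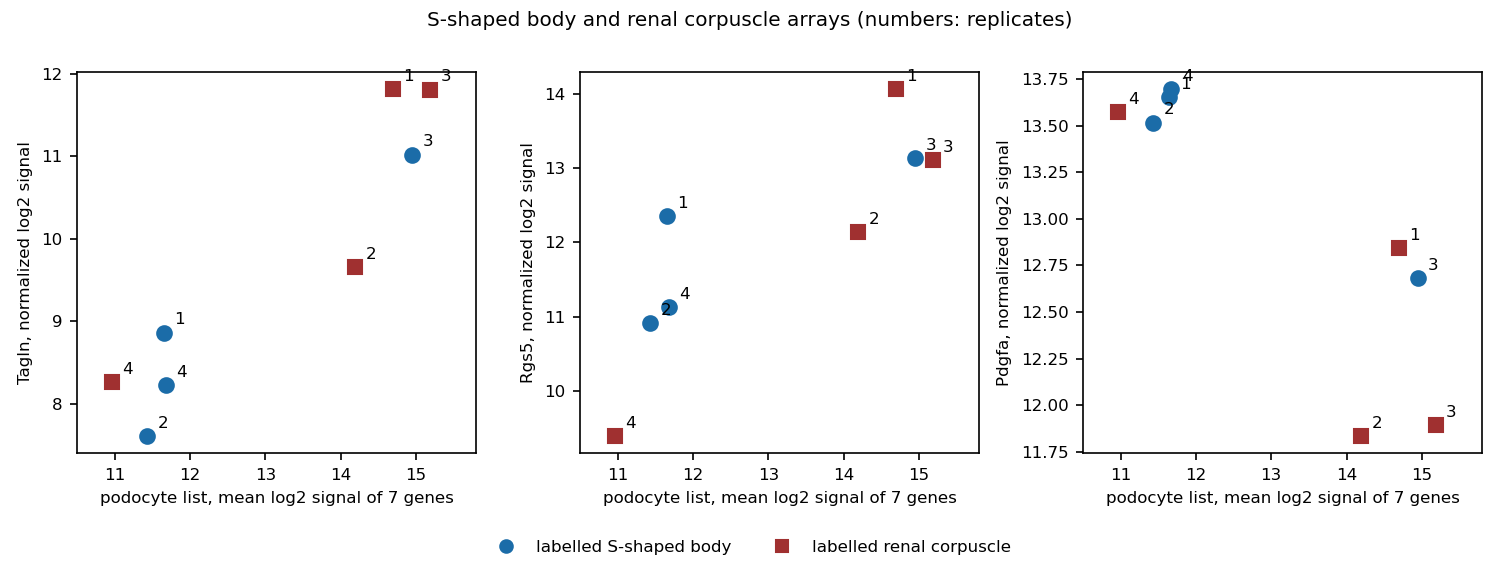
The 4 S-shaped body and 4 renal corpuscle arrays, with the mean log2 signal of 7 podocyte genes on the x axis and the normalized log2 signal of Tagln, Rgs5 or Pdgfa on the y axis; numbers are replicates. S-shaped body replicate 3 lies with renal corpuscle replicates 1 to 3. Renal corpuscle replicate 4 lies with S-shaped body replicates 1, 2 and 4 for Tagln and Pdgfa. For Rgs5 it reads 9.40, below their 10.92 to 12.35.

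Renal corpuscle against the mean of the other 5 E15.5 components called none of the 10 either, where 2.01% of all genes were called higher and 3.4% lower. By limma 3 of the 10 had an unadjusted p under 0.05, Tagln, Pdgfrb and Pdgfb. Tagln (1.71), Rgs5 (1.13), Pdgfrb (1.02 ± 0.43, adjusted p = 0.163) and Pdgfb (0.98) had the largest positive differences. Without renal corpuscle replicate 4, Tagln, Rgs5 and Pdgfb were called higher and Pdgfrb was not. The shares given above are of the fit with all arrays. All 7 podocyte genes and 7 of 12 endothelial genes were higher with all arrays (Cldn5 3.08, Kdr 2.45). The log2 of the summed endothelial signal ran from 15.499 to 17.008 in renal corpuscle and from 14.4 to 15.4 in medullary interstitium. In S-shaped body it ran from 15.08 to 16.63 and overlapped the corpuscle. It ran from 14.08 to 14.22 in proximal tubule, 13.14 to 14.57 in collecting duct and 12.96 to 13.75 in ureteric tip. Of 16 pericyte and mesangial genes 5 were higher: Abcc9 (2.68), Kcnj8 (2.46), Gja4 (1.98), Mcam (1.57) and the Notch target Heyl (1.51). None of the 14 contractile genes was called, the largest difference being that of the calponin Cnn1 (1.45, adjusted p = 0.0505).

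Medullary interstitium against the other 5 E15.5 components gave 3 higher genes, Tagln, Rgs5 and Pdgfra, where 3.48% of all genes were called higher, and 1 lower gene, Pdgfb, where 2.64% were called lower. In none of the 10 did all interstitium arrays lie outside all the other arrays, against 0.77% of all genes. The contractile genes moved too: 7 of 14 were higher and none lower, led by the actin-binding Synpo2 (3.67) and Myl9 (2.97), with the coactivator Myocd (2.40), Mylk (2.23), Actg2 (1.81), Tpm2 (1.56) and Cald1 (1.56). Their median difference was 1.25 and that of all genes 0.01. Smtn (0.93) and Lmod1 (0.75) were the largest not called.

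Other cell types moved with the interstitium as well. Of 11 stroma genes 7 were higher (Tbx18 4.91, Lum 4.13), with the log2 of the summed signal from 17.8 to 18.1 in interstitium and from 15.1 to 17.8 in the other E15.5 components. Of 8 macrophage genes 5 were higher (Mrc1 4.04, Fcgr3 2.68), and of 8 epithelial genes 4 were lower (Cdh16 −2.99, Cldn7 −2.66). No endothelial gene of 12 was called. Of the 16 pericyte and mesangial genes 3 were higher, Tbx18 (4.91), Angpt1 (2.30) and Cd248 (1.92), which are not those that were higher in renal corpuscle, and Anpep was lower (−1.46). The median difference of the 16 was −0.19. Tbx18 stands on the stroma list too and is counted in both. Their part in the results was not tested.

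Set directly against renal corpuscle, medullary interstitium had higher Pdgfra (2.11 ± 0.61, 4.31-fold, adjusted p = 0.0407), where 2.58% of all genes were called higher, and lower Pdgfb, where 1.64% were called lower; the other 8 genes were not called. No gene of the 10 had non-overlapping arrays, against 6.12% of all genes. The Pdgfra call was lost without corpuscle replicate 1 (1.99, adjusted p = 0.0868), 3 (1.73, adjusted p = 0.156) or 4 (2.01, adjusted p = 0.0848) and without interstitium replicate 2 (2.08, adjusted p = 0.0789), 3 (2.00, adjusted p = 0.111) or 4 (2.04, adjusted p = 0.101). In the only pair of these arrays sharing a date the Pdgfra difference was 0.69 and the Pdgfb difference −3.22. With dates as a term in the fit neither was called (1.54, adjusted p = 0.746, for Pdgfra and −2.68, adjusted p = 0.257, for Pdgfb). Tbx18 (5.22), Angpt1 (3.54) and Cd248 (2.64) were higher in interstitium and Heyl was lower (−1.95), and the other 12 of the 16 pericyte and mesangial genes were not called. The median difference of the 16 was −0.73. Synpo2 (3.37), Myocd (1.82) and Mylk (1.58) were higher, and Plat (−1.53) was lower.

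Medullary interstitium against mesenchyme compares the stromal component of E15.5 with the tissue of E11.5. Tagln and Pdgfa were higher, where 4.67% of all genes were called higher, and Pdgfb was lower, where 6.82% were called lower. Tagln and Pdgfa were the 2 without overlap, against 10.7% of all genes. Pdgfra (0.61 ± 0.53), Rgs5 (−0.46 ± 0.67) and Cspg4 (0.51 ± 0.49) were not called. Pdgfrb differed by 0.85 ± 0.47 (adjusted p = 0.242), while its second probe set was called (1.81). Of the contractile genes 4 were higher, Synpo2 (3.33), Myocd (2.81), Myl9 (2.77) and Mylk (2.21), and of the pericyte and mesangial genes Kcnj8 (3.05). Markers of other cells moved too: 4 of 8 epithelial genes were higher (Cdh16 3.32, Cdh1 3.09), 4 of 8 nephron progenitor genes were lower (Gdnf −3.66, Meox1 −3.47), and of 11 stroma genes 3 were higher (Dcn 5.04, Lum 4.89) and 1 lower (Twist1 −2.50). The log2 of the summed epithelial signal ran from 14.13 to 16.44 in interstitium and from 11.59 to 15.36 in mesenchyme, and that of the progenitor genes from 10.55 to 15.06 and from 14.66 to 16.29. Their part in the results was not tested. Against the 3 mesenchyme arrays titled LCM 1 of the 10 was called, Pdgfa. With the Actb control ratio as a covariate Tagln was not called (2.16, adjusted p = 0.335).

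**Figure D5:**
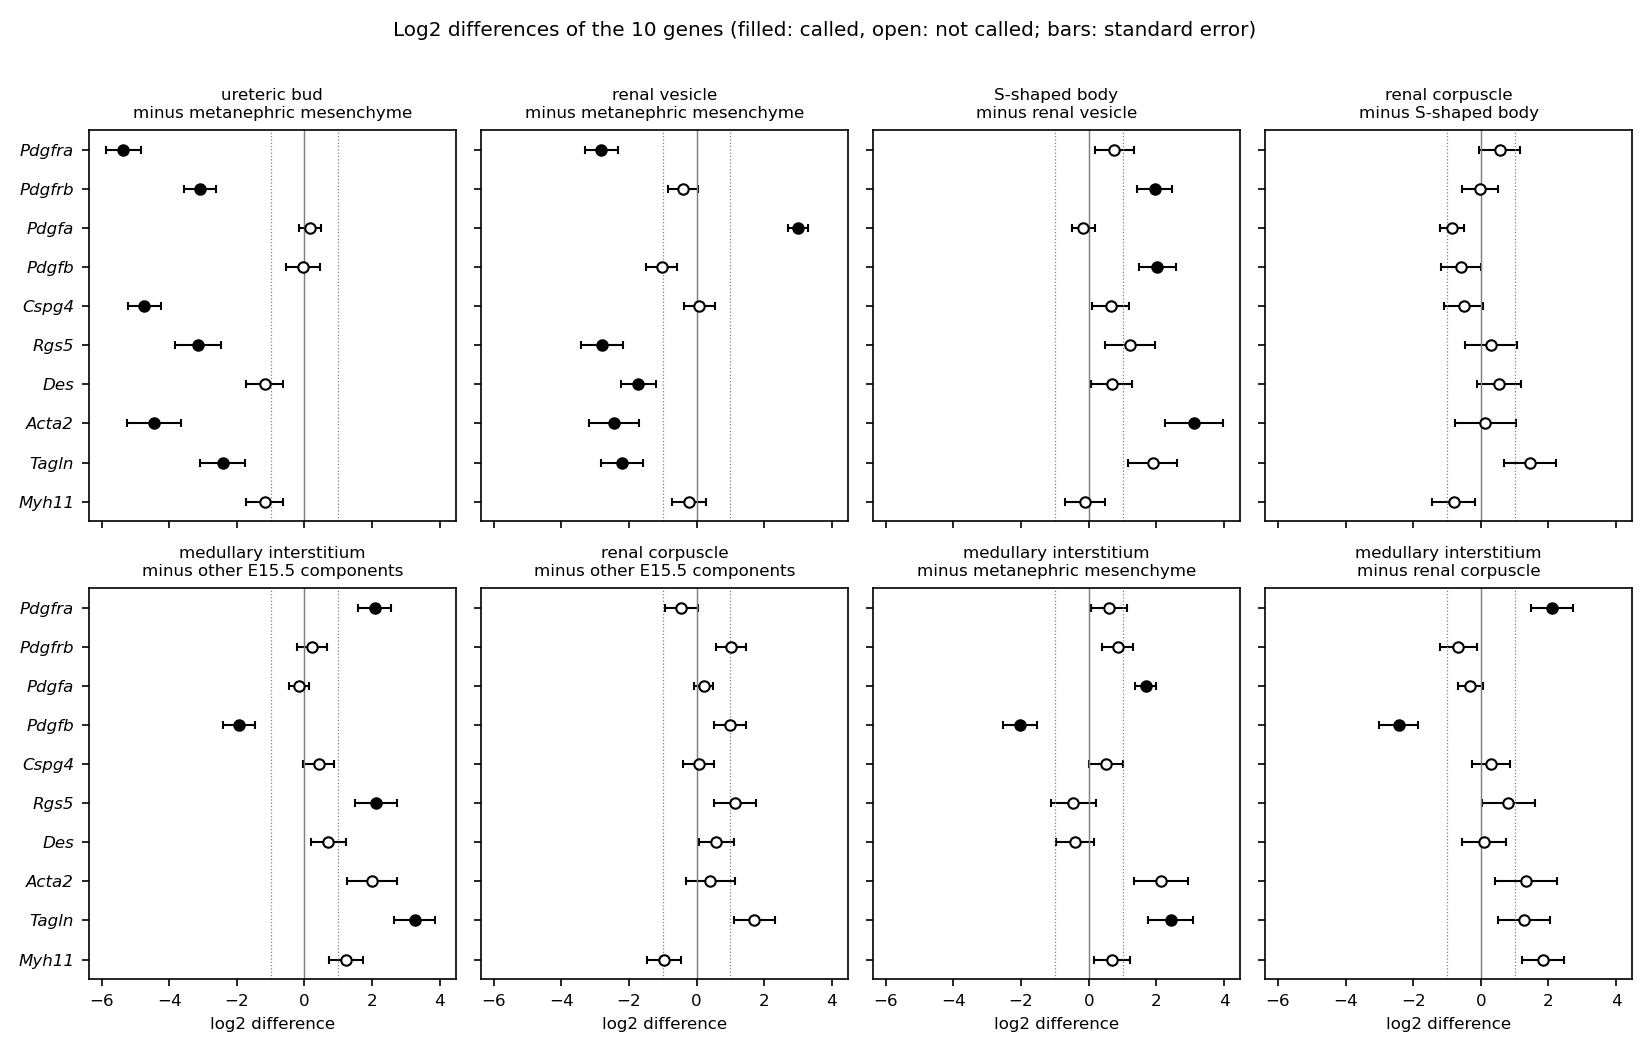
Log2 differences of the 10 genes in 8 comparisons, with standard errors from the model; filled points are called, open points are not, and dotted lines mark a difference of 1 in size. Ureteric bud lies left of 0 for 9 of the 10 genes and for both receptors by more than 3, and Pdgfa alone lies to the right in renal vesicle against mesenchyme by more than 1.

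The genes whose signals were most like those of a member over the 37 arrays, by Pearson's r, were found among all genes tested, as a description across components of very different makeup. For Pdgfra they were Col3a1 (r = 0.92), Cdh11, Snai2, Col1a1 and Cnrip1 (0.88). For Pdgfrb they were Tcf21 (0.88), Fgd5, Pkdcc, Marveld1 and Plxnd1 (0.85). For Pdgfa they were Pgrmc2 (0.84), Clec18a, Pofut2, Ifnar1 and Pcp4 (0.80), and for Pdgfb Arhgap1 (0.73), Adipor2, Snd1, Srgap1 and Arhgef18 (0.68). For Acta2 they were Nid1 (0.84), Col3a1, Ugp2, Cnn2 and Selenop (0.82). Col3a1, a fibrillar collagen, thus stood on the lists of both Pdgfra and Acta2. Among the members themselves r was highest for Pdgfrb with Cspg4 (0.74), Acta2 with Tagln (0.74) and Pdgfra with Acta2 (0.74), and lowest for Pdgfa with Des (−0.42) and with Rgs5 (−0.36).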

How the data were processed

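Values are linear signal intensities deposited by the authors, made with GCOS (version not given in the sources used here) per the submitters' processing notes, which scaled each array so that a trimmed mean (2% trimmed) was 1500. Array medians ran from 126.78 to 333.89, and the number of arrays limits the precision. The offset (34.62, the 20th percentile) was added, and values were log2 transformed and quantile normalized. Probe sets above log2 7.89, the median of all values, in at least 2 arrays were kept; 34945 probe sets have 1 gene symbol, 932 several and 9160 none. Each gene was read by its probe set of highest mean. limma 3.58.1 (R 4.3.3) fitted 1 mean per component over all 37 arrays, with Benjamini-Hochberg adjusted p over 15709 genes; the fit was tested on simulated data. Groups come from the source labels. The members and lists were chosen with earlier results of these data known, and the lists support nothing independently. Named were all members, up to 2 called rises, 2 called falls and 2 uncalled genes per list and comparison, and the 5 genes most alike to each of 5 members; further called genes of the pathway, contractile and pericyte lists were named after their values were seen. Alternatives were other offsets, scaling, filters, probe sets, array weights, blocks, a control ratio, subsets and each array left out; list counts without S-shaped body replicate 3 and renal corpuscle replicate 4 were added after seeing the data. Gene positions and promoter windows are from RefSeq, GRCm38.p6.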

Additional observations from a re-analysis of the deposited data

Results flagged for a closer look

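Among 60 sets of 4, 5 or 8 arrays, a gap test on the highest and lowest array singled out 2, where chance singles out about 1 in 20. For Pdgfra, ureteric bud replicate 3 read 10.34 and lay apart above the other bud arrays at 8.46 to 8.57. It is the only bud array with collagenase in its title, and the part of this was not tested. For Pdgfa, medullary interstitium replicate 1 read 11.56 and lay apart below the other interstitium arrays at 12.40 to 12.51.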

How the results depend on the processing

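Of 80 differences of the 10 genes over 8 comparisons, 24 were called, and 2 of these, Pdgfa and Pdgfra in renal vesicle against mesenchyme, were called in each of the 15 alternatives that could be run for them and in each of 13 leave-one-out fits. The other 22 were lost in at least 1, and 12 of 56 not called were called in at least 1. Without probe sets of shared suffix, Acta2 turned to 0.49 against mesenchyme in ureteric bud and 0.55 in renal vesicle. With dates from the titles fitted as a fixed term, which leaves 8 residual degrees of freedom, 0 members were called in ureteric bud against mesenchyme and in each interstitium comparison. Renal vesicle against mesenchyme and S-shaped body against renal vesicle could not be run. No date in the titles joins renal vesicle to another component, so this fit cannot estimate these differences. S-shaped body against renal vesicle had 0 called when arrays were weighted, when the fit held only its own samples, under the Actb ratio covariate, and without S-shaped body replicate 3 and renal corpuscle replicate 4. Without those 2 arrays, renal corpuscle against S-shaped body had 2, renal corpuscle against the other components 3 and interstitium against renal corpuscle 1. The last had 1 with a stricter filter, 1 with array weights and 0 when other samples were dropped. With mesenchyme titled LCM, 3 were called in renal vesicle and 1 in interstitium, and with dissection or collagenase 3 in renal vesicle. Leaving out 1 array gave 5 to 6 called in ureteric bud against mesenchyme, 3 to 6 in renal vesicle against mesenchyme, 0 to 3 in S-shaped body against renal vesicle, 3 to 4 in interstitium against the other components, 0 to 3 in renal corpuscle against them, 2 to 4 in interstitium against mesenchyme and 0 to 2 in interstitium against renal corpuscle. The causes were not tested. Median scaling moved the median of all genes by up to 0.29.

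Same-numbered arrays did not pair: of 25 pairs 4 had an r over 0.1 (range −0.213 to 0.174). With the replicate block 3 members were called in renal vesicle against mesenchyme, 2 in renal corpuscle against the other components and 1 in interstitium against renal corpuscle, and all genes called went from 1862 to 1078 in the first and from 91 to 315 in renal corpuscle against S-shaped body.

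Counts over all genes moved by over 1.5 times as follows. Ureteric bud against mesenchyme went from 1280 to 2484 with array weights, 2119 when other samples were dropped, 735 with LCM mesenchyme and 1 with the date term. Renal vesicle against mesenchyme went from 1862 to 389 with LCM mesenchyme. S-shaped body against renal vesicle went from 784 to 1215 with the probe set of largest variance, 512 with array weights, 120 when other samples were dropped, 156 with the Actb ratio and 407 without the 2 arrays. Renal corpuscle against S-shaped body went from 91 to 230 with median scaling, 43 with date as a random block, 23 with the Actb ratio, 646 without the 2 arrays and 0 with only the samples compared or the date term. Interstitium against the other components went from 960 to 509 when other samples were dropped and 12 under the date term, and renal corpuscle against them from 849 to 200 with array weights, 250 when other samples were dropped and 3 under the date term. Interstitium against mesenchyme went from 1804 to 3034 with median scaling, 172 with the date term, 318 with the Actb ratio and 472 with LCM mesenchyme. Interstitium against renal corpuscle went from 664 to 231 with array weights, 71 when other samples were dropped and 13 under the date term.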
